A study of Arabidopsis thaliana with 20 samples.

Results

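The MORC (Microrchidia) ATPases and MOM1 of Arabidopsis thaliana are 7 nuclear genes of the 27655 genes in the deposited tables, described here across 2 tissues and 5 genotypes. The members are MORC1 (AT4G36290), MORC2 (AT4G36280), MORC4 (AT5G50780), MORC5 (AT5G13130), MORC6 (AT1G19100), MORC7 (AT4G24970) and MOM1 (AT1G08060), chosen by gene family and locus rather than by a threshold on their values. MORC proteins carry a GHKL-type ATPase domain and compact chromatin. In Arabidopsis, MORC1, MORC2 and MORC6 help to keep methylated transposons silent, MORC6 binds the SUVH2 and SUVH9 proteins that bring RNA polymerase V to methylated DNA, and MORC4 and MORC7 have been linked to pathogen responses as well as to silencing. MOM1, a large protein with part of a chromatin remodeller's helicase domain, silences repeats with little effect on their DNA methylation. The measured quantity was messenger RNA, so silencing activity itself was not assayed.

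Polyadenylated RNA was sequenced from 20 libraries, 2 for each of 10 groups. Meiocytes, the cells that enter meiosis, were collected from floral buds of stages 9 to 10 as 300 to 400 cell masses per replicate, and seedlings were 20 days old with 4 to 5 plants pooled per replicate. Each tissue was taken from wild type (WT), from 2 lines titled pol2a-1 and pol2a-2 (POL2A is the gene of DNA polymerase epsilon's catalytic subunit, which copies the leading strand), from the double mutant suvh2suvh9, and from pol2a-1suvh2suvh9, here the triple mutant, which combines these mutations. Growth was at 20 degrees C under a day of 16 h light and 8 h dark, and no transgene or treatment is named for any group. For pol2a-2 the title and the genotype label disagree, since the latter reads pol2a-1. Titles were followed for these lines, and an alternative joined both. The titles of the double and triple mutants read suvhsuvh9 and pol2a-suvhsuvh9, so they do not name the pol2a allele of the triple mutant.

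By sequence, among the members, MORC1 was closest to MORC2 and MORC4 was closest to MORC7. These pairs are shown because the tissue difference separated their members. MORC1 (chr4:17169385-17173361, minus strand, TAIR10.1) and MORC2 (chr4:17165253-17169375, minus strand) lie head to tail with a gap of 9 bases, and a gap of 11 bases separates MORC2 from AT4G36270 (chr4:17161024-17165241, minus strand), which the annotation describes as an ATP binding protein. The coding sequences of MORC1 and MORC2 were 86.8% identical, and their longest identical exonic run was 74 bases. MORC4 (chr5:20650086-20655401, plus strand) and MORC7 (chr4:12830915-12835949, plus strand) lie on different chromosomes and were 80.3% identical, with a longest run of 43 bases. The other pairs of MORC members were 63.8% to 67.2% identical. AT4G36270, which is not a member, was 84.2% identical to MORC1 and 88.2% to MORC2 in aligned coding bases. The stretch around the longest shared run is given for each pair, 5′ to 3′ from the coding strand, with capitals for the bases that differ between the members of the pair. It covers coding positions 800 to 913 of MORC1, 776 to 889 of MORC2, 1557 to 1639 of MORC4 and 1533 to 1615 of MORC7, each counted from the first coding base, and 7 bases differ in each pair.
MORC1: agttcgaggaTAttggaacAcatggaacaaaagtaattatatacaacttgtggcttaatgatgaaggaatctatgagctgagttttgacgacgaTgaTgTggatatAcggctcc
MORC2: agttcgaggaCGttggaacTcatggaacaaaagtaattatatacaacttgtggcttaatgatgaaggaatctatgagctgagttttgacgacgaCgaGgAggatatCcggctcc
MORC4: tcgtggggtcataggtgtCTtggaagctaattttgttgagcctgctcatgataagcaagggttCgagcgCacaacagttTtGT
MORC7: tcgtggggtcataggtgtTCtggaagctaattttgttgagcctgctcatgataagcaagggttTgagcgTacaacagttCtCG
Within single exons of at least 100 bases, no window of 100 bases of a member occurred a second time in the genome. A read that spans 100 bases of 1 such exon therefore has 1 exact place. Shorter exons and reads across exon junctions were not searched. The sources used here do not say how the submitters treated reads with several hits.

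The upstream sequences of MORC4 and MORC7 are shown because their transcripts differed between the tissues in opposite directions. They are the 250 bases before each annotated gene start, chr5:20649836-20650085 for MORC4 and chr4:12830665-12830914 for MORC7, both on the plus strand of TAIR10.1 (RefSeq). Both strands were searched for the telo-box word AAACCCTA, for the site II word TGGGCC, and for the E2F words TTTCCCGC, TTTGGCGC, TTTCGCGC and TTTGCCGC. Capitals mark every match, and other forms of the site II element were not searched.
MORC4: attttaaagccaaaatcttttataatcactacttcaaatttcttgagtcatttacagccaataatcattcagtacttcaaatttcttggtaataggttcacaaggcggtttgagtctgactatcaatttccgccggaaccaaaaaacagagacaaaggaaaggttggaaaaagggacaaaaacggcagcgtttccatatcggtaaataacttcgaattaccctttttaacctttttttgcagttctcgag
MORC7: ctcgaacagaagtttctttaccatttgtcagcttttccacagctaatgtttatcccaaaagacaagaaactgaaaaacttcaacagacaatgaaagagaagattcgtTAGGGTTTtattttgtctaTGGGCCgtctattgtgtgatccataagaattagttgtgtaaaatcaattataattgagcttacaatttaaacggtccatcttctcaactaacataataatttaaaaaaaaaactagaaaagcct
The MORC4 window held none of these words. The MORC7 window held the telo-box word on its minus strand, as TAGGGTTT, and TGGGCC on its plus strand, with no base in common. TGGGCC also occurred in the windows of MORC2, MORC5 and MORC6, of which MORC2 and MORC6 were higher in meiocytes like MORC4. Most of the MORC2 window lies within MORC1, the gene 9 bases away. None of the words occurred in the windows of MORC1 and MOM1. Among 27444 genes with such a window, 4.49% held the telo-box word, 13.7% TGGGCC and 1.41% an E2F word, so the words are a description of the windows.

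Of the remaining members, only MORC5 overlaps another gene. MORC5 (chr5:4166609-4170643, plus strand) shares 3.14% of its exonic bases with AT5G13140, a gene on the opposite strand, and without strand information reads from the shared bases cannot be assigned. MORC6 (chr1:6594883-6601355, plus strand) and MOM1 (chr1:2501704-2511084, minus strand) share no exonic base with another gene. The deposited exonic length was 6631 bases for MOM1 and 2239 to 3172 bases for the MORC members.

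Library totals ran from 11906055 to 34451852 counts. Levels are given as CPM, the counts divided by the library total and scaled to 1000000, and per length as CPM per 1000 exonic bases where genes are compared. The targeted genes followed the labels in part. SUVH9 lay at 0 to 0.059 CPM in the suvh2suvh9 and triple mutant meiocytes against 13.4 and 6.54 CPM in WT. In seedlings its log2 fold change was -5.15 in suvh2suvh9 and -5.72 in the triple mutant. SUVH2 was lower in both tissues of the triple mutant and in suvh2suvh9 seedlings. In suvh2suvh9 meiocytes SUVH2 held 11.7 and 15.5 CPM against 41.5 and 38.4 CPM in WT, without a call (adjusted p = 0.10, edgeR). POL2A was lower in pol2a-1 and triple mutant meiocytes, with no POL2A call in pol2a-2 meiocytes or in any mutant's seedlings. The tissue labels held against markers: the 14 meiocyte markers summed to 4721 to 5557 CPM in meiocyte libraries and 28.9 to 105 CPM in seedlings, while the 10 photosynthesis markers summed to 283 to 1643 CPM in meiocytes and 61770 to 98630 CPM in seedlings. The 16 tapetum markers, genes of the anther cell layer next to the meiocytes, summed to 312 to 742 CPM in meiocyte libraries, with 1 to 4 of the 16 at 0.

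Transcripts of MORC4, MORC2, MORC6 and MOM1 were more abundant in meiocytes, those of MORC7 were more abundant in seedlings, and those of MORC1 were not called in WT. In each of these 4 higher members the lowest of 10 meiocyte libraries lay above the highest of 10 seedling libraries, in MORC7 the order was the reverse, and in MORC1 and MORC5 the libraries overlapped. Between WT meiocytes and WT seedlings, 4 of 7 members were higher and 1 was lower at an adjusted p under 0.05 (edgeR's quasi-likelihood F test, Benjamini-Hochberg over all features), which is called hereafter. Among all features tested 35.2% were higher and 41.7% were lower, so a member's call is common in this comparison. The median log2 fold change of the members was 1.79, beside -0.20 over all features. With the 5 genotypes averaged, 5 members were higher and 1 was lower, beside 41.5% and 46.8% of all features. In bulk RNA, a larger share of cells that express a gene and more RNA per cell cannot be told apart.

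**Figure D1:**
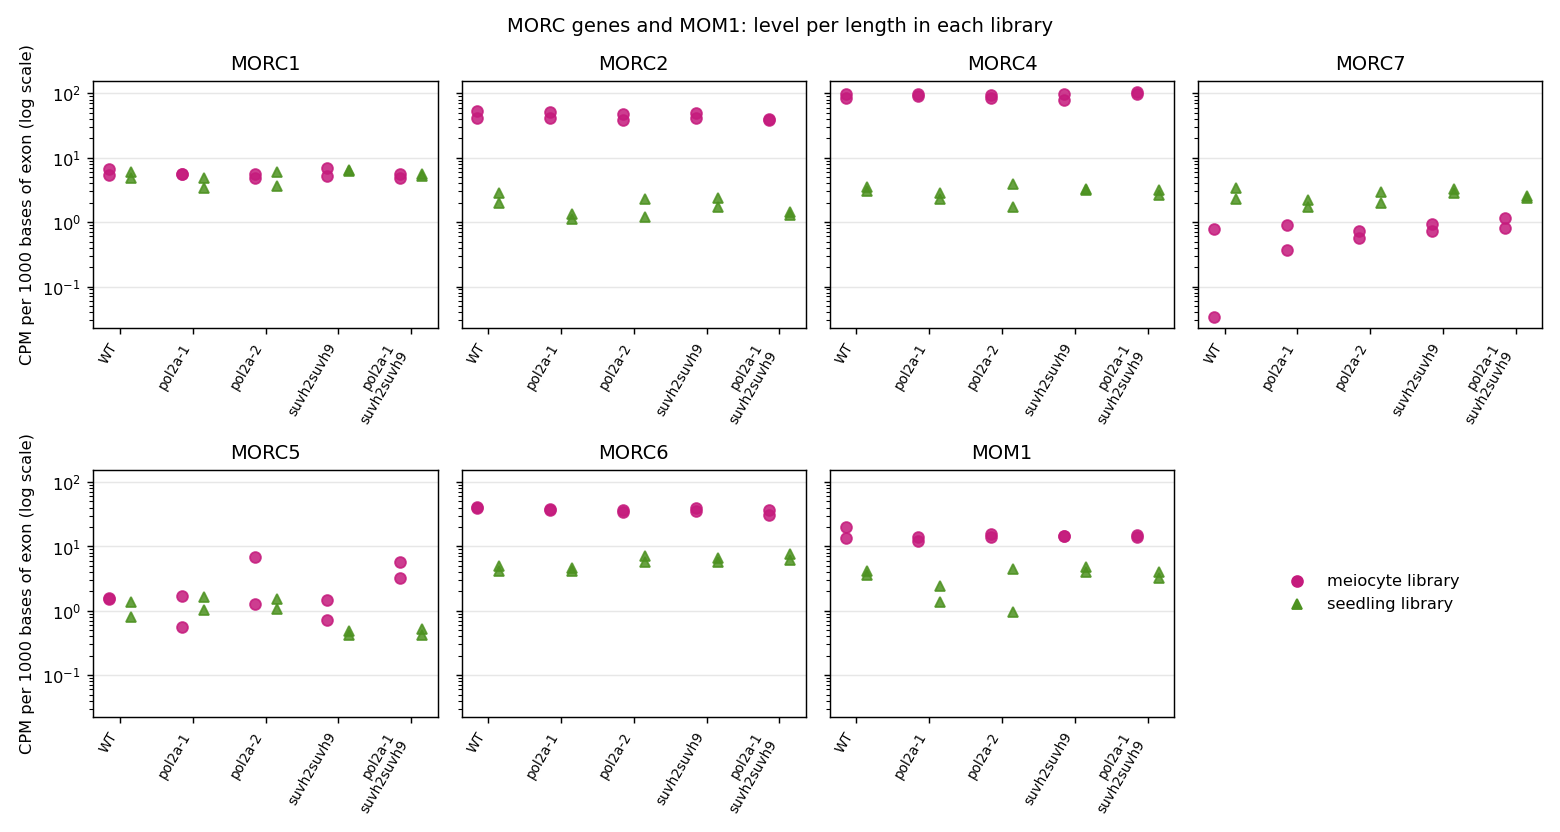
Level of each gene in each library, in CPM per 1000 exonic bases on a log axis, by genotype; circles are meiocyte and triangles seedling libraries, 2 per group. MORC4, MORC2, MORC6 and MOM1 lie higher in all 10 meiocyte libraries, MORC7 lies higher in all 10 seedling libraries, and MORC1 and MORC5 overlap.

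MORC4, an ATPase linked to the control of pathogen response genes, had the largest tissue difference of the 7 genes. WT meiocytes held 306 and 269 CPM of MORC4, and WT seedlings held 11.1 and 9.62 CPM. The log2 fold change was 4.48 ± 0.28 (SE; adjusted p = 5.0e-10, edgeR), and 7.25% of features had a higher value. Over all genotypes MORC4 ranged from 249 to 330 CPM in meiocytes and from 5.53 to 12.5 CPM in seedlings, so no genotype bridged the gap.

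MORC7, the closest relative of MORC4, moved the other way. WT meiocytes held 2.25 and 0.0955 CPM of MORC7, the second value resting on 2 counts, and WT seedlings held 9.70 and 6.41 CPM. The log2 fold change was -3.18 ± 0.70 (adjusted p = 0.00057, edgeR). Without the first WT meiocyte library it was -6.55, and without the second, which holds the 2 counts, it was -2.24, and the call stood in both. The 8 mutant meiocyte libraries held 1.05 to 3.31 CPM, and their seedling counterparts 4.79 to 9.14 CPM, so MORC7 was low in meiocytes of every genotype.

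The pair therefore had unequal makeup in the 2 tissues. Per length, MORC4 exceeded MORC7 by 83.2 to 262 times in 9 of the 10 meiocyte libraries. In the second WT meiocyte library the ratio was 2515, with an exact 95% counting interval of 696 to 20770. In seedlings the ratio lay between 0.883 and 1.34, near equality in all 10 libraries.

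**Figure D2:**
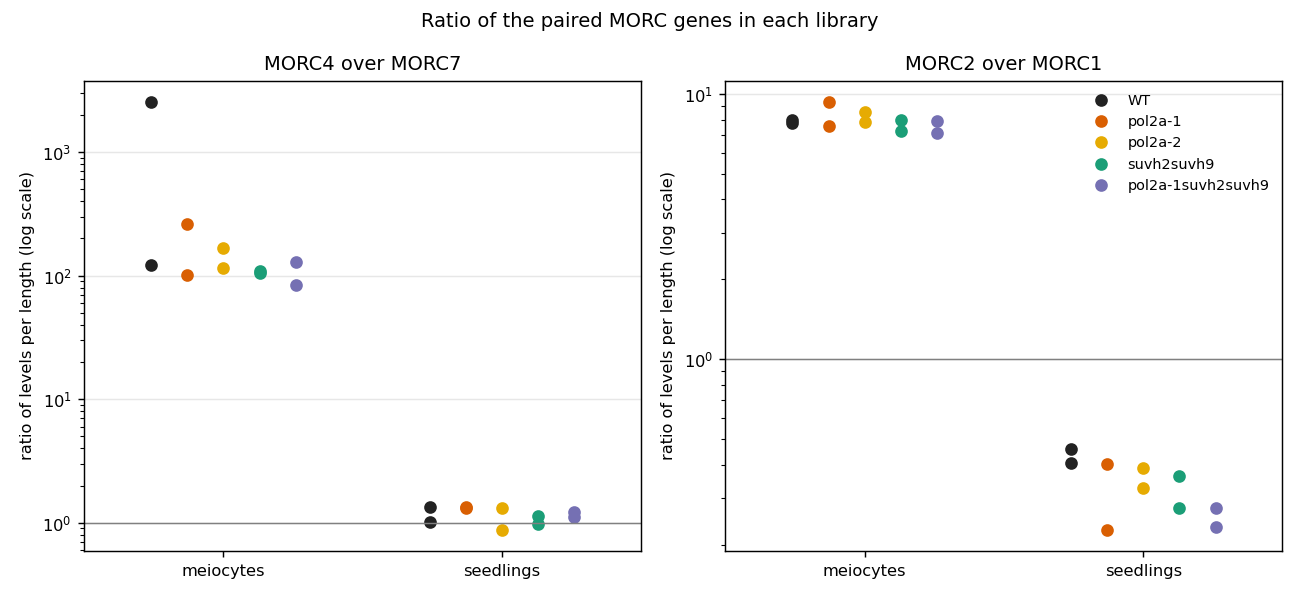
Ratio of levels per length (log axis) of MORC4 over MORC7 (left) and of MORC2 over MORC1 (right); each point is 1 library, coloured by genotype. The MORC4 ratio lies at 83.2 to 2515 in meiocytes and 0.883 to 1.34 in seedlings, and the MORC2 ratio at 7.14 to 9.28 and 0.228 to 0.459.

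MORC2 and its tandem neighbour MORC1, which act together with MORC6 in silencing, also parted. WT meiocytes held 118 and 91.9 CPM of MORC2, and WT seedlings held 6.27 and 4.47 CPM. The log2 fold change of MORC2 was 3.96 ± 0.29 (adjusted p = 2.9e-09, edgeR), and 8.85% of features had a higher value. For MORC1, known also from resistance to a plant virus, WT meiocytes held 15.7 and 12.6 CPM and WT seedlings held 14.4 and 11.6 CPM. The 2 groups of MORC1 overlapped, and its log2 fold change was -0.21 ± 0.27 (adjusted p = 0.49, edgeR). Averaged over genotypes it was -0.20 ± 0.12 (adjusted p = 0.12, edgeR), which was called lower by DESeq2 at -0.35 (adjusted p = 0.0039; the median of all features was -0.33 with DESeq2's size factors) and turned to 0.10 when the trend with gene length was removed, so no direction is given for MORC1.

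The MORC2 to MORC1 ratio per length turned over between the tissues. It was 7.14 to 9.28 in meiocytes and 0.228 to 0.459 in seedlings, with no library near 1. The third gene of the tandem, AT4G36270, was higher in meiocytes like MORC2: its WT meiocyte libraries held 70.2 and 51.3 CPM, its WT seedling libraries 7.05 and 6.08 CPM, and its log2 fold change was 2.88 ± 0.28 (adjusted p = 7.1e-08, edgeR). AT4G36270 and MORC2 were 88.2% identical in their aligned coding bases, with a longest shared exonic run of 79 bases. The part of reads shared between these neighbours in the levels was not tested.

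MORC6, the partner of MORC1 and MORC2, was the third MORC member with a higher meiocyte level. WT meiocytes held 110 and 105 CPM of MORC6, and WT seedlings held 13.03 and 11.18 CPM. The log2 fold change was 2.84 ± 0.19 (adjusted p = 1.1e-09, edgeR). Across genotypes MORC6 kept to 80.9 to 110 CPM in meiocytes and 10.9 to 20.3 CPM in seedlings.

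MORC5 was low in both tissues and was not called between them in WT. WT meiocytes held 4.15 and 4.30 CPM, and WT seedlings held 2.15 and 3.65 CPM. For MORC5 the log2 fold change was 0.24 ± 0.64 (adjusted p = 0.74, edgeR). With the 5 genotypes averaged it was 0.97 ± 0.29 (adjusted p = 0.0051, edgeR), an average to which 3 high mutant meiocyte libraries, described with the mutants, contribute.

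MOM1, the silencing factor outside the MORC family, was higher in meiocytes by a smaller step. WT meiocytes held 135 and 90.6 CPM, and WT seedlings held 28.0 and 23.8 CPM. For MOM1 the log2 fold change was 1.79 ± 0.43 (adjusted p = 0.0012, edgeR) and became 1.54 ± 0.22 when each library's trend with gene length was removed. The lowest meiocyte library of any genotype, at 81.9 CPM, lay above the highest seedling library, at 31.4 CPM.

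**Figure D3:**
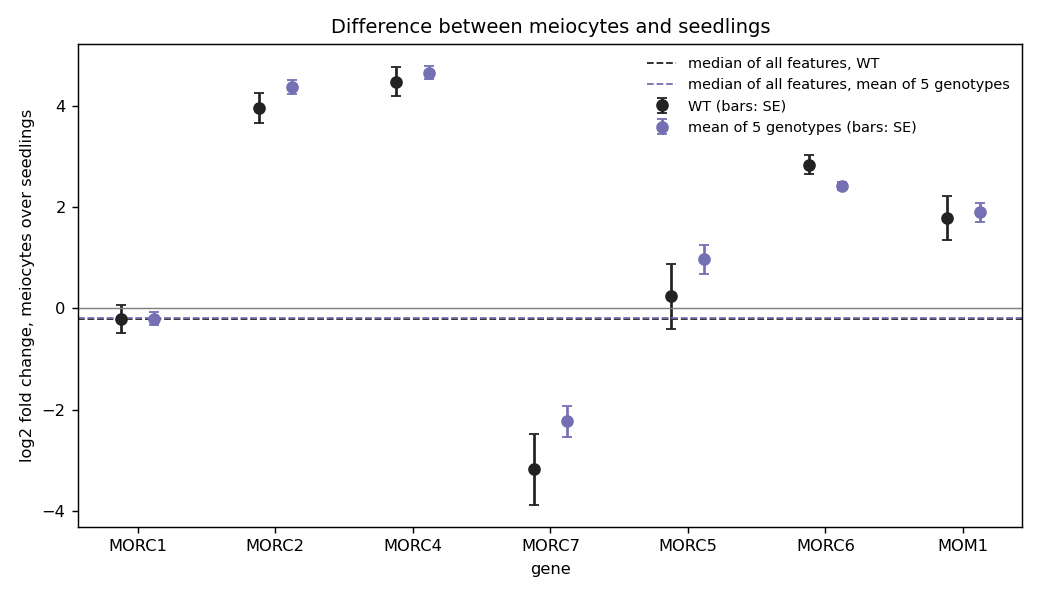
Log2 fold change of each gene, meiocytes over seedlings, in WT and with the 5 genotypes averaged; bars are standard errors of the fit and dashed lines the median over all features (-0.20 in WT). MORC4, MORC2, MORC6 and MOM1 lie above 0 in WT, MORC7 lies at -3.18, and MORC1 lies beside the median of all features.

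Ordered by level per length, the members stood differently in the 2 tissues. In WT meiocytes the mean levels per length were 90.6 for MORC4, 46.9 for MORC2, 40.7 for MORC6, 17.0 for MOM1, 5.96 for MORC1, 1.58 for MORC5 and 0.414 for MORC7, and in this order MORC2 and MORC6 alone had overlapping libraries. In WT seedlings they were 5.51 for MORC1, 4.58 for MORC6, 3.91 for MOM1, 3.26 for MORC4, 2.84 for MORC7, 2.40 for MORC2 and 1.08 for MORC5. There the libraries of MORC1 overlapped those of MORC6, those of MORC4 overlapped those of MORC7, and those of MORC7 overlapped those of MORC2. Of the summed level per length of the MORC members, MORC4 made up 47.7% to 56.4% in meiocytes and 10.99% to 17.15% in seedlings. The sum itself was 163 to 200 CPM per 1000 bases in meiocytes and 14.4 to 23.4 in seedlings. It leaves out AT4G36270, the relative of MORC1 and MORC2 that is not a member. AT4G36270 held 22.4 to 32.4 CPM per 1000 bases in meiocytes and 1.48 to 4.43 in seedlings.

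In mutant meiocytes no member was called against WT. The count was 0 of 7 in pol2a-1, where 0.646% of all features were called, 0 of 7 in pol2a-2 with 0.646% called, 0 of 7 in suvh2suvh9 with 0.00471% called, and 0 of 7 in the triple mutant with 0.0613% called. With so few features called in these 4 comparisons, a count of 0 among 7 genes says little about the members. DESeq2 also called 0 in each, and at an unadjusted p under 0.05 edgeR gave 0 members in pol2a-1, pol2a-2 and suvh2suvh9 and 1, MORC6, in the triple mutant. The log2 fold changes of MORC1, MORC2, MORC4, MORC6 and MOM1 lay between -0.41 and 0.07. MORC4, the most abundant member, had the smallest standard error, 0.16, and differences from WT of -0.11 to 0.07.

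MORC5 and MORC7 had the widest errors in meiocytes, at 0.68 to 0.97 on the log2 scale. MORC5 stood at 18.5 CPM in the first pol2a-2 library and at 8.524 and 15.35 CPM in the triple mutant, and at 1.498 to 4.514 CPM in the other 7 meiocyte libraries. Its log2 fold change against WT was 1.27 ± 0.69 in pol2a-2 (adjusted p = 0.55, edgeR) and 1.36 ± 0.68 in the triple mutant (adjusted p = 0.37, edgeR). The pol2a-2 value was -0.33 without its first library, the 1 high library of that group, and 0.63 ± 0.75 (adjusted p = 0.88, edgeR) with pol2a-1 and pol2a-2 joined as the genotype label has them. The 3 high libraries also held high tapetum marker sums, 643 CPM in the pol2a-2 library and 575 and 681 CPM in the triple mutant, against 320 and 312 CPM in WT. The highest sum, 742 CPM in the first suvh2suvh9 library, went with 3.93 CPM of MORC5, and the part of tapetum RNA in the MORC5 values was not tested. MORC7 was higher than its WT mean in 7 of the 8 mutant meiocyte libraries, but its WT libraries lay at 38 and 2 counts and no comparison was called.

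In seedlings, MORC6 was the member called against WT, and this only in the triple mutant. No member was called in pol2a-1 (0.0269% of all features called), in pol2a-2 (2.62%) or in suvh2suvh9 (10.9%), and 1 of 7 was called in the triple mutant (13.3%). A count of 1 in 7 is close to the background share of 13.3%. At an unadjusted p under 0.05, edgeR gave 1 member in pol2a-1 (MORC2), 1 in pol2a-2 (MORC6), 2 in suvh2suvh9 (MORC5 and MORC6) and 3 in the triple mutant (MORC2, MORC5 and MORC6). DESeq2 called 0, 0, 0 and 1 in these comparisons.

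**Figure D4:**
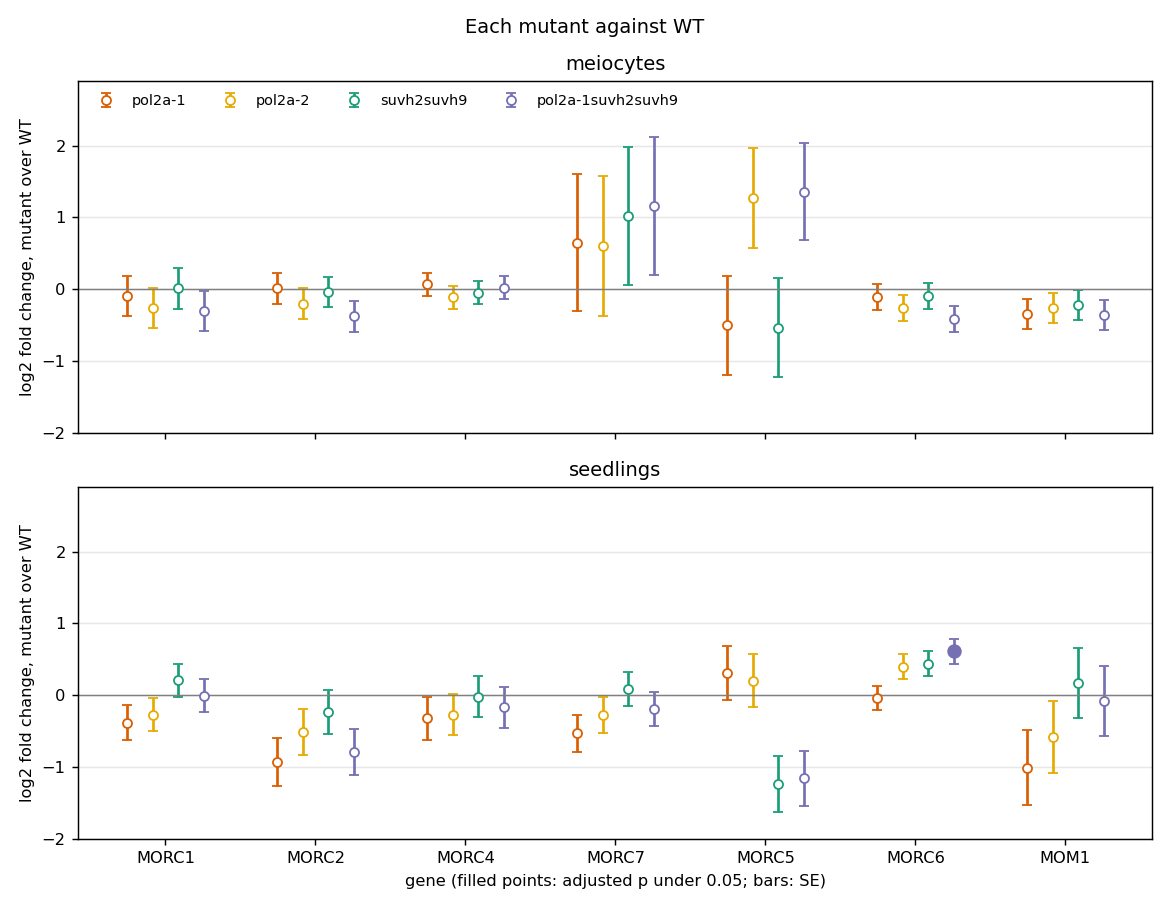
Log2 fold change of each gene in each mutant over WT, in meiocytes (top) and seedlings (bottom); bars are standard errors of the fit and the filled point marks an adjusted p under 0.05. Only MORC6 in triple mutant seedlings, at 0.61, is filled; MORC5 in seedlings of suvh2suvh9 and the triple mutant lies at -1.23 and -1.16.

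MORC6, the protein that binds SUVH2 and SUVH9, stood at 13.03 and 11.18 CPM in WT seedlings and at 16.2 and 20.3 CPM in the triple mutant. Both triple mutant libraries lay above both WT libraries, and the log2 fold change was 0.61 ± 0.17 (adjusted p = 0.040, edgeR), a change of 1.53-fold. The seedlings of pol2a-2 held 15.2 and 18.6 CPM, those of suvh2suvh9 held 17.7 and 15.1 CPM, and those of pol2a-1 held 12.1 and 10.9 CPM. In pol2a-2 and suvh2suvh9 both libraries also lay above WT, with log2 fold changes of 0.40 ± 0.17 (adjusted p = 0.21) and 0.44 ± 0.17 (adjusted p = 0.13, both edgeR) that were not called, while pol2a-1 overlapped WT at -0.04 ± 0.17. The call in the triple mutant was near the threshold. It was lost when any WT, pol2a-1, suvh2suvh9 or triple mutant seedling library was left out, with log2 fold changes of 0.46 to 0.77 and adjusted p of 0.0504 to 0.262, and held without the first or the second pol2a-2 library.

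Markers of dividing cells moved with MORC6 in seedlings. Of 10 proliferation markers, 6 were called higher in the triple mutant (13.3% of all features called), 4 in suvh2suvh9 (10.9%), 7 in pol2a-2 (2.62%) and 0 in pol2a-1 (0.0269%). With so few features called in pol2a-1, its count of 0 says little, and 7 of the 10 markers had positive log2 fold changes there. The cyclin gene CYCB1;1, which is also grouped with DNA damage checkpoint genes, had a log2 fold change of 1.43 ± 0.21 in the triple mutant. The cyclin-dependent kinase gene CDKB1;1 had one of 1.54 ± 0.16 there. The summed level of these markers was 166 and 192 CPM in WT seedlings, 206 and 186 CPM in pol2a-1, 311 and 346 CPM in pol2a-2, 232 and 245 CPM in suvh2suvh9 and 287 and 267 CPM in the triple mutant, with none of the 10 at 0. In pol2a-2, suvh2suvh9 and the triple mutant both the marker sums and MORC6 lay above both WT libraries. In pol2a-1 the sums overlapped WT, with a median log2 fold change of 0.31 over the 10 markers, and MORC6 also overlapped WT, at -0.04. The part of dividing cells in the MORC6 values was not tested. The meiocyte markers also summed higher in these groups, at 79.2 to 105 CPM in pol2a-2, 59.2 to 60.5 CPM in suvh2suvh9 and 56.9 to 62.1 CPM in the triple mutant, against 28.9 to 31.3 CPM in WT.

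**Figure D5:**
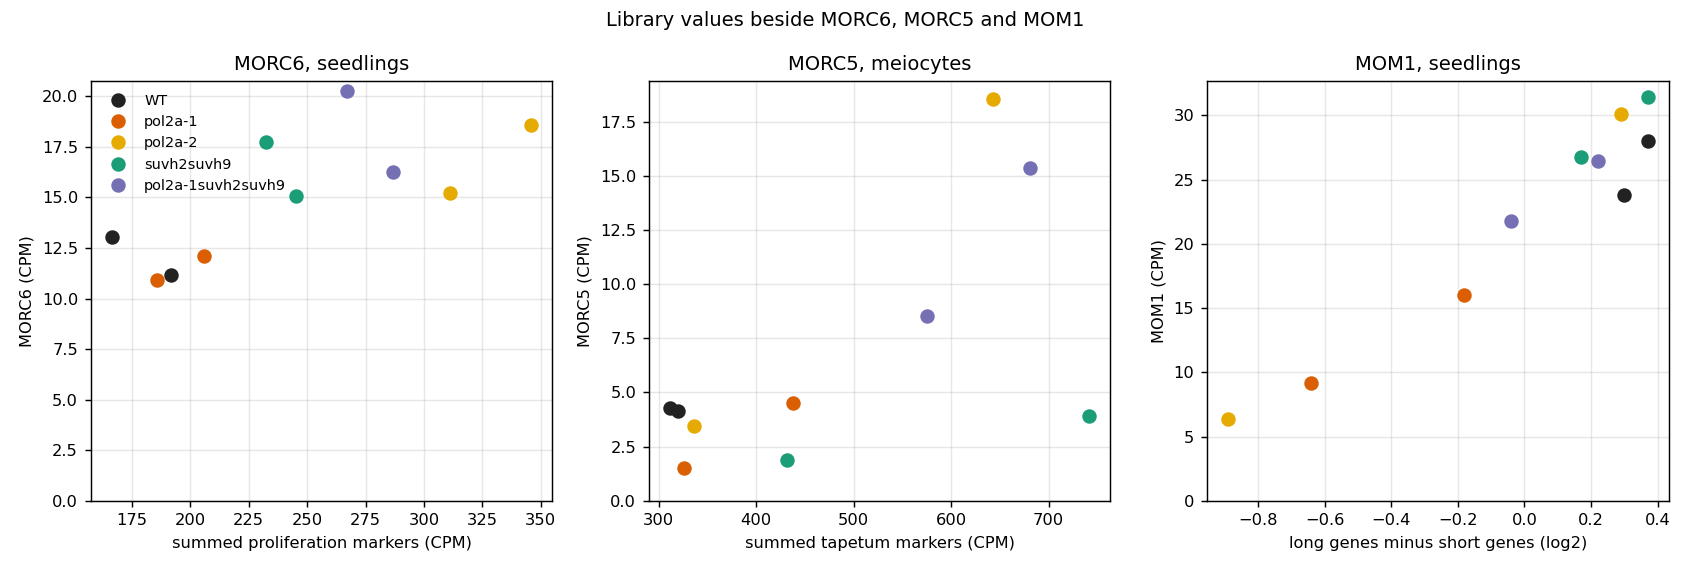
CPM of MORC6 in seedlings against the summed proliferation markers (left), of MORC5 in meiocytes against the summed tapetum markers (middle) and of MOM1 in seedlings against the library's long-gene signal (right), each point 1 library coloured by genotype. The 4 libraries of WT and pol2a-1 are lowest on both axes of the left plot, the first suvh2suvh9 library lies at 742 CPM of tapetum markers with 3.93 CPM of MORC5, and the lowest MOM1 value, 6.35 CPM, lies at the lowest long-gene signal, -0.89.

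MORC5 had its lowest seedling levels in the groups that carry the suvh2 and suvh9 mutations, and neither group was called against WT. It stood at 2.15 and 3.65 CPM in WT, 1.32 and 1.12 CPM in suvh2suvh9 and 1.41 and 1.13 CPM in the triple mutant. All 4 libraries with the suvh2 and suvh9 mutations lay below the 6 other seedling libraries, which began at 2.15 CPM. The MORC5 log2 fold change against WT was -1.23 ± 0.39 in suvh2suvh9 (adjusted p = 0.073, edgeR) and -1.16 ± 0.39 in the triple mutant (adjusted p = 0.081, edgeR). These levels rest on 26 to 98 counts per library in these groups. AT5G13140, which overlaps MORC5 on the opposite strand, held 46.1 to 62.5 CPM in seedlings and was called in none of the mutant comparisons. Its part in the MORC5 counts was not tested.

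MOM1 varied within the pol2a groups of seedlings and was called in no mutant against WT in the main fit. WT seedlings held 28.0 and 23.8 CPM, pol2a-1 held 16.0 and 9.16 CPM, pol2a-2 held 6.35 and 30.1 CPM, suvh2suvh9 held 31.4 and 26.8 CPM and the triple mutant held 21.8 and 26.5 CPM. Both pol2a-1 libraries lay below WT, and the pol2a-2 libraries lay on either side of it. The MOM1 log2 fold change was -1.01 ± 0.52 in pol2a-1 (adjusted p = 0.36, edgeR) and -0.58 ± 0.50 in pol2a-2 (adjusted p = 0.52, edgeR). With only the groups compared in the fit, MOM1 was called in pol2a-1 at -1.01 ± 0.21 (adjusted p = 0.016, edgeR). Without a count filter it was called in pol2a-1 at -1.03 ± 0.20 (adjusted p = 2.5e-05, edgeR) and in pol2a-2 at -0.58 ± 0.19 (adjusted p = 0.037, edgeR). The 3 lowest libraries were also the 3 with the lowest long-gene signal, the median centred log2 level of genes of at least 4000 bases minus that of genes under 1000 bases, each gene centred on its mean over the seedling libraries: -0.18 and -0.64 in pol2a-1 and -0.89 in the first pol2a-2 library, against 0.37 and 0.30 in WT. With each library's trend with length removed, the MOM1 difference was -0.34 ± 0.24 in pol2a-1 and -0.21 ± 0.23 in pol2a-2. MOM1 in pol2a-1 was called without the first pol2a-2 seedling library (-1.02, adjusted p = 0.036) or without the second (-1.01, adjusted p = 0.034). In pol2a-2, without its second library, MOM1 was called at -2.05 (adjusted p = 0.0025) and MORC4 at -0.93 (adjusted p = 0.021, all edgeR).

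The other members were not called against WT in seedlings. MORC2 stood at 6.27 and 4.47 CPM in WT, 2.52 and 3.02 CPM in pol2a-1 and 3.25 and 2.87 CPM in the triple mutant, so neither mutant overlapped WT. The MORC2 log2 fold changes, -0.93 ± 0.34 in pol2a-1 (adjusted p = 0.29) and -0.79 ± 0.32 in the triple mutant (adjusted p = 0.14, both edgeR), were not called. MORC1, MORC4 and MORC7 had log2 fold changes of -0.53 to 0.21 over the 4 mutants. MORC7 had its lowest seedling mean in pol2a-1, at 6.17 and 4.79 CPM against 9.70 and 6.41 CPM in WT.

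Comparing the triple mutant with pol2a-1 asks what the loss of SUVH2 and SUVH9 adds to the polymerase mutation. In seedlings 2 of 7 members were called, where 10.7% of all features were. MORC6 was higher, with a log2 fold change of 0.66 ± 0.17 (adjusted p = 0.041, edgeR), and MORC5 was lower, at 1.41 and 1.13 CPM against 2.72 and 4.37 CPM, with a log2 fold change of -1.47 ± 0.40 (adjusted p = 0.046, edgeR). The MORC6 call held only without the first or the second pol2a-2 library, as before, at 0.51 to 0.82 over all libraries left out in turn. The MORC5 call was lost without the second WT library, without either library of pol2a-1, suvh2suvh9 or the triple mutant, at -1.06 to -1.78 over all libraries left out in turn. MOM1 was not called in seedlings, at 0.93 ± 0.52 (adjusted p = 0.26, edgeR). It was called at 0.93 ± 0.23 with only the groups compared in the fit (adjusted p = 0.027, edgeR). Without a count filter MOM1 was called at 0.95 ± 0.20 (adjusted p = 4.7e-05, edgeR). In meiocytes 0 of 7 were called against pol2a-1 (0.712% of all features called), with 1 member, MORC5, at an unadjusted p under 0.05 by edgeR and 0 called by DESeq2.

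Against suvh2suvh9, the triple mutant shows what the polymerase mutation adds. No member was called in meiocytes (0.0377% of all features called) or in seedlings (0.247%), DESeq2 called 0 in both, and edgeR gave 1 member (MORC5) and 0 at an unadjusted p under 0.05. MORC5 had the largest difference in meiocytes, 1.90 ± 0.70 (adjusted p = 0.46, edgeR), from libraries at 3.93 and 1.90 CPM in suvh2suvh9 and 8.52 and 15.4 CPM in the triple mutant, which did not overlap. In seedlings the members' differences were -0.56 to 0.17. The libraries titled pol2a-2 and pol2a-1 likewise gave no call of a member, in meiocytes (0.514% of all features called) or in seedlings (0.386%), with MORC5 and MORC6 at an unadjusted p under 0.05 by edgeR and 0 called by DESeq2.

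A mutant's difference from WT was itself compared between the tissues. No member was called for pol2a-1 (0.508% of all features called), pol2a-2 (1.02%) or suvh2suvh9 (0.926%), where edgeR gave 1 member each (MORC2, MORC6 and MORC6) at an unadjusted p under 0.05 and DESeq2 called 0. For the triple mutant 1 of 7 was called, MORC6, where 3.73% of all features were. Its meiocyte libraries held 95.8 and 80.9 CPM against 110 and 105 CPM in WT, a log2 fold change of -0.41 ± 0.18, while its seedling libraries lay above WT. In the same meiocyte libraries the photosynthesis markers summed to 1643 and 915 CPM against 630.5 and 283 CPM in WT, with none of the 10 at 0 and none called. The tapetum markers, also with none called, summed to 575 and 681 CPM against 320 and 312 CPM, with 1 of 16 at 0 in each mutant library and 3 or 4 in WT. The part of RNA from other cells in the MORC6 values was not tested. The difference between the 2 effects was -1.04 ± 0.26 (adjusted p = 0.033, edgeR). It was not called without the second WT meiocyte library, the first pol2a-1 meiocyte library, or any library of the triple mutant or of WT seedlings, at -0.90 to -1.18. MORC7 was called in this comparison for all 4 mutants but not in the pooled data when the first WT meiocyte library was left out, with differences of 4.32 to 4.76 set against a WT library of 2 counts.

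MOM1 lies 77769 bases from POL2A on chromosome 1, so the genes between them were described in the pol2a mutants. Of 21 genes in the interval, 13 or 14 were tested. None was called in pol2a-1 in either tissue, 1 was called in pol2a-2 meiocytes (AT1G08065) and 2 in triple mutant seedlings (AT1G08090 and AT1G08230), all higher. Of all features 0.646% were called in pol2a-2 meiocytes and 13.3% in triple mutant seedlings, so 2 of 13 tested genes is close to the background. Their median log2 fold change lay between -0.21 and 0.15 over these comparisons. In pol2a-1 seedlings it was -0.05, beside -1.01 for MOM1.

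The other silencing genes give the setting of the tissue difference. These counts are to be read against 35.2% of all features higher and 41.7% lower, with a median of -0.20. Of 29 genes of RNA-directed DNA methylation, 16 were higher and 9 lower in WT meiocytes, with a median log2 fold change of 0.90; the Argonaute gene AGO9 was higher by 9.93 ± 0.34 and CLSY4, which recruits RNA polymerase IV, by 5.63 ± 0.27. Of 12 genes of methylation maintenance and H3K9 methylation, 9 were higher and 0 lower, with a median of 2.53, among them the methyltransferase gene MET1 at 3.10 ± 0.33 and the remodeller gene DDM1 at 2.85 ± 0.24. Of 10 genes of replication-linked silencing, 9 were higher, with a median of 3.26, among them FAS2, of the chromatin assembly factor, at 4.07 ± 0.24. Of 5 genes listed as partners of MOM1, 2 were higher, AT1G43770 at 3.10 ± 0.26 and AT4G11560 at 0.97 ± 0.22, with a median of 0.59. The members' median of 1.79 lay above those of the RNA-directed methylation and MOM1 partner lists and below those of the maintenance and replication lists, and the 10 proliferation markers had a median of 2.67 with 9 higher.

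In the mutants few genes of these lists were called. In meiocytes, outside the targeted gene POL2A, no gene of the lists of RNA-directed methylation, methylation maintenance, replication-linked silencing or MOM1 partners was called in any mutant against WT by edgeR. In pol2a-2 seedlings, where 2.62% of all features were called, 4 genes of these lists were called higher: the methyltransferase gene DRM1 (5.67 ± 1.14), VIM2 (1.39 ± 0.30) and VIM3 (1.10 ± 0.17), of methylation maintenance, and the histone methyltransferase gene ATXR6 (1.40 ± 0.26). In triple mutant seedlings, where 13.3% were called, the Argonaute gene AGO6 (1.14 ± 0.30), VIM2 (1.77 ± 0.29) and ATXR6 (1.24 ± 0.26) were called higher, and no partner of MOM1 was called. The F-box gene SDC, a known target of silencing, rose in suvh2suvh9 seedlings by 6.41 ± 0.44 and in triple mutant seedlings by 4.43 ± 0.44, while the members' medians there were 0.09 and -0.17. QQS, another target of silencing, was lower there, by -1.97 ± 0.47 and -3.94 ± 0.57. In suvh2suvh9 seedlings the demethylase gene ROS1 fell by 3.16 ± 0.74, all on the log2 scale by edgeR.

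For each member the genes with the most similar pattern were sought among 18876 nuclear genes, by Pearson's r of log2(CPM + 1) over the 10 group means, which share their libraries and fall into 2 clusters by tissue, so that r mostly reflects the tissue step. The closest to MORC4 were SEC15B, QC and AT5G05480, each at an r of 1.000. The closest to MORC6 were AT2G20635, ATX1 and PS1, each at 0.999, and those to MOM1 were AT1G21610, AT1G24300 and AT1G27430, each at 0.999. MORC1, whose libraries overlap between the tissues, was closest to REV1 at 0.958 and to SYD and TOR at 0.953. MORC7 was closest to UNE7 at 0.996, and MORC5 to AT3G23870 at 0.973. Over the 20 single libraries 0 or 1 of each member's 3 closest genes stayed among the closest 3. Among the members themselves r was 1.00 between MORC2 and MORC4, -0.94 between MORC4 and MORC7 and 0.38 between MORC1 and MORC2.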

How the data were processed

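The authors deposited raw read counts per gene and transposable element for 20 libraries; per the submitters' processing notes TAIR10 was the build, and featureCounts 2.0.0, STAR 2.7.9a, DESeq2 1.30.1 and cutadapt 3.4 were among the tools. The library kit named in the labels does not mark strand, and the sources used here do not give the counting settings for strand or for reads with several hits. Library totals were 11932325 to 20941920 in meiocytes and 11906055 to 34451852 in seedlings.

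Counts were fitted with edgeR 4.0.16 (R 4.3.3; filterByExpr with a minimum count of 10, TMM scaling, quasi-likelihood F test) over the 10 libraries of a tissue, or over all 20 for tissue comparisons and for differences of effects. P-values were Benjamini-Hochberg adjusted over 21214 features in meiocytes, 22297 in seedlings and 24418 in the joint fit. All 7 members passed the count filter in each fit. The script for these fits was tested on simulated data. Nothing in the labels says that meiocyte replicates came from separate plants, so p-values measure the spread between these samples, which may be partly technical. CPM values are counts scaled to a library total of 1000000, without TMM scaling.

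Genes named are all members, the 3 targeted genes, at most 6 called genes per list and comparison by lowest p, and the 3 genes most similar to each member. The members and lists were chosen with earlier results of these data known. Sequences and loci came from RefSeq's TAIR10.1, where 27270 of 27445 nuclear genes had the deposited exonic length. Alternatives were DESeq2 1.42.0 (Wald test and size factors), no count filter, other sets of libraries, removal of organellar or repeated genes, a length trend offset, a replicate block, joined pol2a groups and leaving out each library. The exact interval of the MORC4 to MORC7 ratio covers counting error only.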

Additional observations from a re-analysis of the deposited data

Results flagged for a closer look

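MORC6 was singled out because the effect of the pol2a-1suvh2suvh9 genotype differed between the tissues in a test of the difference itself. The difference, meiocytes minus seedlings, was -1.04 on the log2 scale (adjusted p = 0.0333, edgeR). Both mutant libraries lay below both WT libraries in meiocytes, and both lay above them in seedlings. Groups of 2 libraries are too small for a search for single outlying samples.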

How the results depend on the processing

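Over 3024 alternative values of the members' fold changes, none of those called turned its direction. Of those that kept all libraries, 1179 kept their side of the threshold, 18 became called and 7 were lost; with 1 library left out these numbers were 1775, 14 and 31. The 5 WT tissue calls stood in every alternative run.

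Members called without a count filter numbered 1 for triple mutant against suvh2suvh9, triple mutant against pol2a-1 and pol2a-2 against pol2a-1 in meiocytes, 2 for pol2a-1 and 2 for the triple mutant against WT in seedlings, and 1 each for pol2a-2 and suvh2suvh9 there. With only the 2 groups compared in the fit they numbered 1 for triple mutant against pol2a-1 in meiocytes, and in seedlings 1 for pol2a-1 and 3 for the triple mutant against WT. With all 20 libraries in the fit they were 0 for the triple mutant against WT and 1 against pol2a-1 in seedlings. With 1 library left out, members called ranged from 0 to 1 for pol2a-1, suvh2suvh9 and the triple mutant against WT and for pol2a-2 against pol2a-1, 0 to 2 for pol2a-2 against WT and 0 to 3 for the triple mutant against pol2a-1, all in seedlings. For effects between tissues they ranged from 0 to 1 in pol2a-1, pol2a-2 and suvh2suvh9 and 0 to 2 in the triple mutant, and for the tissue difference averaged over genotypes from 6 to 7.

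With the replicate block, members called were 0 for the triple mutant against WT and against pol2a-1 in seedlings and 0 for its effect between tissues. Deviations of same-numbered libraries correlated at -0.18 to 0.22 in meiocytes and -0.17 to 0.15 in seedlings, over 10 pairs of groups each. These correlations had both signs and do not settle whether some groups shared a batch by replicate number.

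Features called, genes and transposable elements together, ranged over the alternatives from 775 to 5720 around 2962 for triple mutant against WT seedlings. For pol2a-1 seedlings they ranged from 0 to 1732 around 6. The median tissue difference of all features, -0.18 in the mean of genotypes, was -0.33 with DESeq2's size factors and -0.53 without a count filter. MORC7 in meiocytes and MORC5 in seedlings rest on few counts. The cause of these changes was not tested.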
